A study of Mus musculus with 6 samples.

Results

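The genes described here are 10 mouse cytokine genes of the IL-6, IL-12 and IL-10 families and their relatives: *Il6*, *Lif*, *Osm*, *Csf3*, *Il10*, *Il27*, *Ebi3*, *Il12a*, *Il12b* and *Il23a*. They were taken by symbol from the 54532 genes listed for each library, low ones included. RNA was measured by poly(A) RNA-seq in iBMDMs, which are mouse bone marrow-derived macrophages immortalized with retroviruses carrying v-raf and v-myc. The Control group carried a control shRNA (shControl) and the PGAM5 KD group carried an shRNA against *Pgam5* (shPGAM5), a mitochondrial phosphatase, with 3 libraries in each group. Both groups were treated with LPS, the bacterial ligand of TLR4, at 100 ng/ml for 4 hours, and untreated cells were not analysed here, so the values are levels after LPS and not an induction by it. The labels name no further shRNA against *Pgam5*, so the knockdown and other differences between the infected lines cannot be told apart. Whether the replicates came from separate cultures is not stated, so p-values measure the spread between these libraries, which may be technical.

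IL-6, LIF and OSM are helical cytokines that bind receptors containing the shared chain gp130 (*Il6st*) and signal through JAK kinases and STAT3, a pathway that SOCS3 restrains. Cytokines of the IL-12 family are heterodimers, in which *Il12a* pairs with *Il12b* to make IL-12, *Il23a* pairs with *Il12b* to make IL-23, and *Il27* pairs with *Ebi3* to make IL-27. IL-10 dampens macrophage activation through STAT3, and G-CSF, the product of *Csf3*, drives the production of neutrophils. In macrophages these genes are classical targets of TLR4 signaling, and NF-κB, AP-1 and C/EBP factors are known to act at the *Il6* promoter.

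In the table of RefSeq promoters used here (GRCm38.p6), 5 of the 10 genes were matched by symbol, *Il6*, *Il12a*, *Il12b*, *Ebi3* and *Lif*. The promoters of *Il6*, *Ebi3* and *Lif* are shown, chosen because these genes were higher in PGAM5 KD cells. *Il27* and *Csf3* were also higher but were not matched. The sequences cover the 250 bases before the RefSeq start on the plus strand of each gene, at chr5:30012864-30013113 for *Il6*, chr17:55952373-55952622 for *Ebi3* and chr11:4257318-4257567 for *Lif*. Capitals mark matches on either strand to the NF-κB consensus, AP-1 (TGANTCA), C/EBP (TTNNGNAA) or the CRE core (TGACGT).
Il6: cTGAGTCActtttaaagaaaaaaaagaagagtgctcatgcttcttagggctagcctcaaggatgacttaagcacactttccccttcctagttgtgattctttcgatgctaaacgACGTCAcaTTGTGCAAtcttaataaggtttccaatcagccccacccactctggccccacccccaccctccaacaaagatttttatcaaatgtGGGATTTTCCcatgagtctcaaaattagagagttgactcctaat
Ebi3: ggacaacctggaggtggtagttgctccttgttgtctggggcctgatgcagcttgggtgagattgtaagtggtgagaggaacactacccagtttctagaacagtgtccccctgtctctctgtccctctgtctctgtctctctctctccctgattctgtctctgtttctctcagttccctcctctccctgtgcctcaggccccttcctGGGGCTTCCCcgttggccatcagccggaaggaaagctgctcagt
Lif: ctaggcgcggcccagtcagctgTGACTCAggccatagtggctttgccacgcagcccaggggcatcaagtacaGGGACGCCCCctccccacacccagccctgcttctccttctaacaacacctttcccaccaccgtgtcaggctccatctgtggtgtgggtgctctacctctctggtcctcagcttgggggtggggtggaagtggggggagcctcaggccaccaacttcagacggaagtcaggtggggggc
The *Il6* promoter held a match to each of these 4 motifs, the NF-κB match GGGATTTTCC ending 35 bases before the start, the C/EBP match TTGTGCAA 121 bases, the CRE match on the minus strand (ACGTCA) 131 bases and the AP-1 match TGAGTCA 243 bases before it. In *Ebi3* the match GGGGCTTCCC to the NF-κB consensus also ended 35 bases before the start, and a second lay 14 to 23 bases after it. *Lif* held an NF-κB match (GGGACGCCCC, 169 bases before the start) and an AP-1 match (TGACTCA, 222 bases before the start). No match overlapped another, and the AP-1 matches and the printed NF-κB matches of *Ebi3* and *Lif* were matches on both strands. The windows of *Il12a* (2 annotated starts) and *Il12b* held no match to these motifs, nor to the ISRE core (GAAANNGAA) or a STAT motif (TTCNNNGAA), over 250 bases before and 50 after the start. Among all 32851 RefSeq promoter windows of that length, 8.46% held the NF-κB consensus, 7.81% AP-1, 40.7% C/EBP, 7.51% the CRE core, 8.56% the ISRE core and 8.30% the STAT motif. These matches describe letters and do not show binding, and a window without a match may still hold such sites in other letters. No link between the motifs and the changes of these genes was tested.

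The libraries held between 18163464 and 24388917 fragments, as recovered from the deposited values. Levels are given in FPKM, in which the fragments of a gene are divided by its exon length and by library depth, so that they can be compared between genes. *Pgam5* itself fell from 17.1, 13.0 and 13.4 FPKM in control replicates 1, 2 and 3 to 4.33, 5.75 and 4.53 FPKM after the knockdown, with a log2 fold change of -1.40 (SE 0.13, adjusted p = 0.000358 from limma). Of 8 macrophage markers, 7 had a mean of at least 1 FPKM, while *Mertk* was at 0, and their summed level was 2802 to 2894 FPKM in control and 2526 to 2545 FPKM in PGAM5 KD libraries. The sum was carried by *Lyz2* (1666 ± 30.1 and 1265 ± 22.6 FPKM, SD, n = 3 each), and single markers moved both ways, with 4 of the 7 higher in PGAM5 KD cells (*Adgre1*, *Itgam*, *Cd14* and *Fcgr1*, log2 fold changes from 0.56 to 1.51) and 3 lower (*Lyz2*, *Csf1r* and *Cd68*, from -0.64 to -0.20) at an adjusted p under 0.05 from limma. The summed levels of dendritic cell, neutrophil, mast cell, lymphocyte and fibroblast markers ran from 0 to 0.715 FPKM per library, with *Flt3*, *Cd209a* and *Ccr7* of the dendritic cell list at 0. The part of these marker differences in the results below was not tested. In such bulk RNA, fewer expressing cells and less RNA per cell cannot be told apart.

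Of the 10 cytokine genes, 5 were higher in PGAM5 KD than in control iBMDMs after LPS (*Il6*, *Il27*, *Csf3*, *Lif* and *Ebi3*) and 0 were lower. The test was limma on log2(FPKM + 1) over the 10540 genes with a mean of at least 1 FPKM, at an adjusted p under 0.05. By the same rule 16.8% of all genes tested were higher and 14.9% were lower. With the added requirement of an absolute log2 fold change above 1, 3 of the 10 were higher (*Il6*, *Il27* and *Csf3*) and 0 were lower, beside 0.787% higher and 0.531% lower among all genes tested. Of these genes 7 passed the filter on low values and *Il12a*, *Il12b* and *Il23a* did not, and *Il6* passed it only through its level in the PGAM5 KD libraries. At an unadjusted p under 0.05, 6 of the 10 were higher and 0 were lower by limma, and voom on recovered fragments called 5 higher and 0 lower at an adjusted p under 0.05. For 6 of the 10, namely the 5 above and *Osm*, the lowest PGAM5 KD value exceeded the highest control value, and for 0 of the 10 the reverse held, beside 24.2% and 22.9% of all genes tested. The sum of deposited FPKM over all genes was 304393 to 304889 in control and 317936 to 324298 in PGAM5 KD libraries. Scaling to TPM, which removes this difference, changed the split over all genes from 1771 higher and 1575 lower to 1088 higher and 2282 lower, and the number of cytokine genes called higher was still 5.

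**Figure D1:**
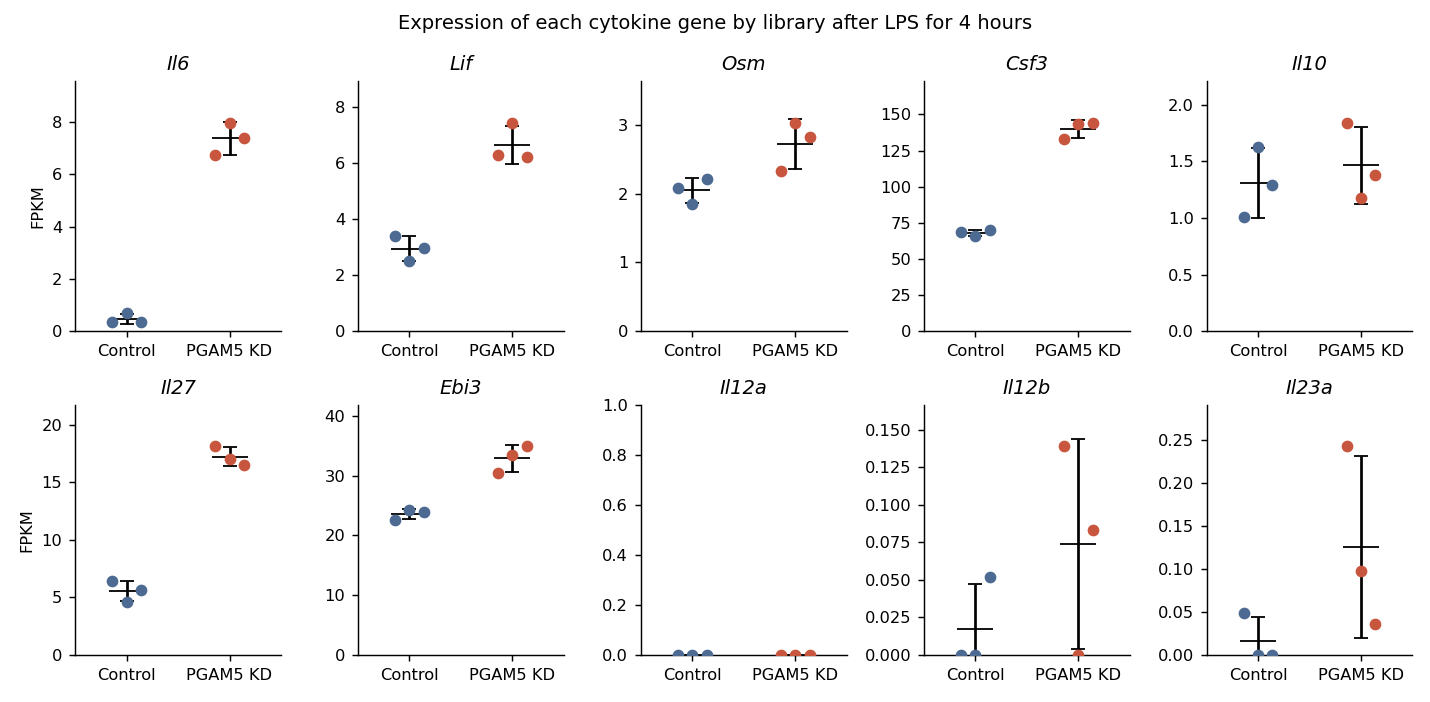
Each panel plots the level of 1 cytokine gene in FPKM (vertical axis, from 0, with its own scale) in the 3 control and 3 PGAM5 KD libraries. Points are libraries, the wide line is the mean and the bars are ± SD, cut off at 0. The 3 PGAM5 KD points lie above all control points for *Il6*, *Lif*, *Osm*, *Csf3*, *Il27* and *Ebi3*, the groups overlap for *Il10*, *Il12b* and *Il23a*, and *Il12a* is at 0 throughout.

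*Il6*, which encodes the acute-phase cytokine IL-6, showed the largest log2 fold change of the 7 genes tested. *Il6* (ENSMUSG00000025746) lies on the plus strand of chromosome 5 of GRCm38 from 30013114 to 30019981. Its level was 0.340, 0.694 and 0.359 FPKM in control libraries 1, 2 and 3, from 15, 34 and 17 fragments. In PGAM5 KD libraries 1, 2 and 3 it was 6.75, 7.98 and 7.41 FPKM, from 360, 352 and 439 fragments. All PGAM5 KD libraries were thus far above the highest control library, in which *Il6* was still under 1 FPKM. The mean rose from 0.464 ± 0.199 to 7.38 ± 0.618 FPKM (SD, n = 3 each), a 15.9-fold higher mean. The ratio of the summed fragments per depth was 15.6, with a 95% interval of 12.2 to 20.4 that covers counting error only. On the log2(FPKM + 1) scale, which understates the change of a gene this low in control cells, the log2 fold change was 2.52 (SE 0.12, 95% interval 2.24 to 2.80, adjusted p = 2.54e-05 from limma). With a constant of 0.1 in place of 1 it was 3.78, and with voom on the recovered fragments 4.01. The paper reports the other direction by qPCR, a reduced induction of *Il6* mRNA in LPS-treated PGAM5 KD iBMDMs. The cause of this difference was not tested.

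*Lif* and *Osm*, which encode gp130 cytokines of the IL-6 family, are neighbors on the plus strand of chromosome 11, where *Lif* (ENSMUSG00000034394, 4257557 to 4272514) begins 16.5 kb after the end of *Osm* (ENSMUSG00000058755, 4236420 to 4241026). LIF acts on stem cells, neurons and the uterus as well as in inflammation. The level of *Lif* was 3.39, 2.49 and 2.97 FPKM in control libraries 1, 2 and 3 and 6.31, 7.44 and 6.21 FPKM in PGAM5 KD libraries 1, 2 and 3. The lowest PGAM5 KD library was well above the highest control library. The mean rose from 2.95 ± 0.449 to 6.65 ± 0.684 FPKM (SD, n = 3 each), with a log2 fold change of 0.96 (SE 0.11, 95% interval 0.71 to 1.21, adjusted p = 0.00085 from limma). This was just under the threshold of 1 on the log2 scale, which it passed with a constant of 0.1 (1.15), with scaling to TPM (1.03), with voom (1.17) and without Control replicate 1 (1.04).

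*Osm* encodes oncostatin M, which myeloid cells release and which acts on stromal and endothelial cells. Its level was 2.08, 1.85 and 2.21 FPKM in control libraries 1, 2 and 3 and 2.32, 3.03 and 2.82 FPKM in PGAM5 KD libraries 1, 2 and 3. The groups did not overlap, but PGAM5 KD replicate 1 was close to the highest control library. The means were 2.05 ± 0.18 and 2.72 ± 0.362 FPKM (SD, n = 3 each), and the log2 fold change of 0.28 (SE 0.10, 95% interval 0.04 to 0.53) missed the threshold (adjusted p = 0.0769 from limma, and p = 0.1 in an exact two-sided permutation test, the smallest that 3 libraries against 3 allow). It was past the threshold with array weights (log2 fold change 0.31, adjusted p = 0.0487) and without PGAM5 KD replicate 1 (log2 fold change 0.36, adjusted p = 0.0436), and over all alternatives the adjusted p ran from 0.0436 to 0.212.

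*Csf3*, which encodes G-CSF, had the highest level of the 10 genes in both groups. *Csf3* (ENSMUSG00000038067) lies on the plus strand of chromosome 11 from 98701263 to 98703629. It was 68.4, 65.7 and 70.1 FPKM in control libraries 1, 2 and 3 and 133, 143 and 144 FPKM in PGAM5 KD libraries 1, 2 and 3. Libraries of a group lay close together, and both groups were far apart. The mean rose 2.06-fold, from 68.1 ± 2.23 to 140.1 ± 6.33 FPKM (SD, n = 3 each), with a log2 fold change of 1.03 (SE 0.04, 95% interval 0.93 to 1.13, adjusted p = 2.05e-05 from limma). Between 1756 and 4971 fragments per library stood behind these values. With scaling to TPM and with quantile normalization the log2 fold change was 0.96, under the threshold of 1 but still past the adjusted p.

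*Il10*, the gene of the anti-inflammatory cytokine of the set, was low in both groups and did not pass the test. *Il10* (ENSMUSG00000016529) lies on the plus strand of chromosome 1 from 131019845 to 131024974. It was 1.01, 1.63 and 1.29 FPKM in control libraries 1, 2 and 3 and 1.84, 1.18 and 1.38 FPKM in PGAM5 KD libraries 1, 2 and 3, from 24 to 53 fragments. The groups overlapped, since PGAM5 KD replicate 2 was below control replicates 2 and 3. The means were 1.31 ± 0.309 and 1.46 ± 0.341 FPKM (SD, n = 3 each), and the log2 fold change was 0.09 (SE 0.15, adjusted p = 0.673 from limma). Its 95% interval of -0.27 to 0.45 leaves room for changes in both directions, and the sign turned when Control replicate 1 (-0.0018) or PGAM5 KD replicate 1 (-0.013) was left out.

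*Il27* and *Ebi3*, the genes of the subunits of IL-27, were both higher in PGAM5 KD cells, *Il27* by more. *Il27* (ENSMUSG00000044701), on chromosome 7 (minus strand, 126589010 to 126594941), encodes the cytokine chain p28. It was 6.42, 4.61 and 5.67 FPKM in control libraries 1, 2 and 3 and 18.1, 17.0 and 16.5 FPKM in PGAM5 KD libraries 1, 2 and 3. The groups were widely apart. The mean rose 3.10-fold from 5.57 ± 0.907 to 17.2 ± 0.815 FPKM (SD, n = 3 each), with a log2 fold change of 1.48 (SE 0.10, 95% interval 1.24 to 1.72, adjusted p = 0.000114 from limma). *Ebi3* (ENSMUSG00000003206), on the plus strand of chromosome 17 from 55952640 to 55957022, encodes a receptor-like chain that IL-27 shares with IL-35. It was 22.6, 24.2 and 23.9 FPKM in control libraries 1, 2 and 3 and 30.4, 33.4 and 34.9 FPKM in PGAM5 KD libraries 1, 2 and 3. The control libraries were close together and all PGAM5 KD libraries were above them. The mean rose 1.40-fold from 23.6 ± 0.832 to 32.9 ± 2.27 FPKM (SD, n = 3 each), with a log2 fold change of 0.46 (SE 0.06, 95% interval 0.33 to 0.60, adjusted p = 0.00138 from limma).

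Both IL-27 genes share exon bases with a gene on the opposite strand, and whether the libraries or the counting kept strand is not stated. *Il27* shares 103 of its 1021 exon bases with *Apobr*, a lipoprotein receptor gene, which was 18.5 ± 0.524 FPKM in control and 20.5 ± 0.557 FPKM in knockdown cells (SD, n = 3 each; log2 fold change 0.14, SE 0.04, adjusted p = 0.0381 from limma). *Il27* held 6.52% to 19.5% of the fragments on both genes, and the log2 difference of the summed fragments per depth was 0.33. *Ebi3* shares 270 of its 1154 exon bases with the antisense gene *Gm16712*, which was 2.65 ± 0.0702 FPKM in control and 2.56 ± 0.667 FPKM in knockdown cells (SD, n = 3 each; log2 fold change -0.05, adjusted p = 0.807 from limma). *Ebi3* held 83.0% to 91.2% of the fragments on both genes, and their sum was higher in PGAM5 KD cells by 0.41 on the log2 scale.

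The chains of IL-12 and IL-23 were at or near 0 in these cells. *Il12a* (ENSMUSG00000027776, plus strand of chromosome 3 from 68690644 to 68698547), the specific chain of IL-12, was listed at 0 in all 6 libraries, and 0 fragments allow a level of up to 0.0723 to 0.0971 FPKM per library (3 fragments). *Il12b* (ENSMUSG00000004296, plus strand of chromosome 11 from 44400063 to 44414033), the chain p40 that IL-12 and IL-23 share, was 0, 0 and 0.0521 FPKM in control libraries 1, 2 and 3 and 0.139, 0 and 0.0834 FPKM in PGAM5 KD libraries 1, 2 and 3. *Il23a* (ENSMUSG00000025383, minus strand of chromosome 10 from 128296139 to 128298752), the specific chain of IL-23, was 0.049, 0 and 0 FPKM in control libraries 1, 2 and 3 and 0.243, 0.098 and 0.0365 FPKM in PGAM5 KD libraries 1, 2 and 3. The groups overlapped for both genes, and PGAM5 KD replicate 1 was the highest library for both. *Il12b* had 2 fragments over the control libraries and 10 over the PGAM5 KD libraries, a ratio per depth of 4.48 (95% interval 0.956 to 42.1, counting error only), with p = 0.4 in an exact two-sided permutation test. *Il23a* had 2 and 18 fragments, 12 of them in PGAM5 KD replicate 1, a ratio per depth of 8.07 (95% interval 1.93 to 71.7, counting error only), with p = 0.2 in an exact two-sided permutation test. With no filter on low values, limma gave adjusted p = 0.473 for *Il12b* and 0.283 for *Il23a*, so neither passed the test.

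**Figure D2:**
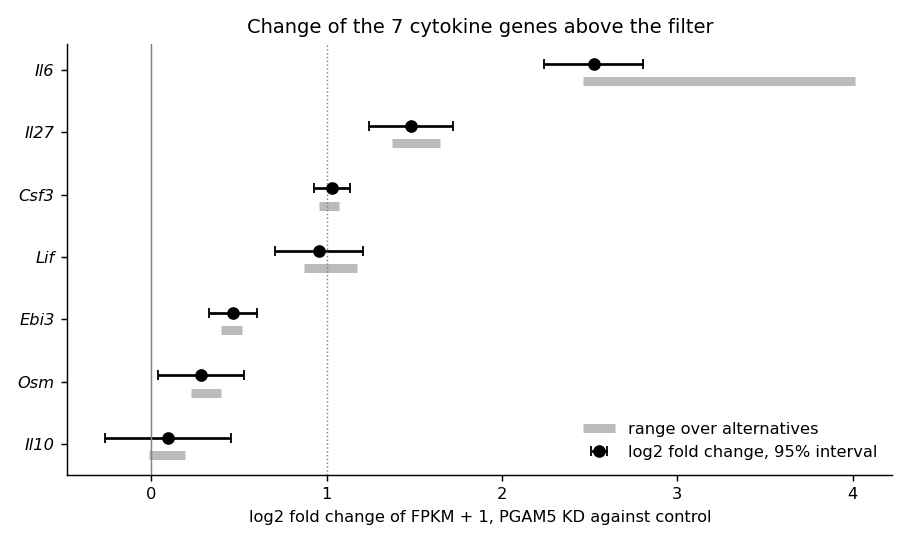
Log2 fold changes of FPKM + 1 in PGAM5 KD against control (horizontal axis) of the 7 cytokine genes above the filter on low values, 3 libraries per group. Black points and bars are the estimate and its 95% interval, gray bars are the range over all alternatives, and the dotted line is the threshold of 1. *Il6* has the largest value (2.52) and the widest range (2.46 to 4.01), *Csf3* and *Lif* lie at the threshold, and the interval of *Il10* covers 0.

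The order of the levels changed mainly through *Il6*. In control cells it ran from *Csf3* (68.1 FPKM) through *Ebi3*, *Il27*, *Lif*, *Osm* and *Il10* (1.31 FPKM) to *Il6* (0.464 FPKM), and the libraries of neighbors in this order did not overlap. *Il12b*, *Il23a* and *Il12a* followed, and their libraries overlapped. In PGAM5 KD cells *Il6* moved from rank 7 to rank 4, where its libraries overlapped those of *Lif* at rank 5, and the order of the others above 1 FPKM stayed the same. *Csf3* made up 65.5% of the summed level of the 10 genes in control and 67.1% in PGAM5 KD cells. The share of *Il6* was 0.446% in control and 3.54% in PGAM5 KD cells, that of *Il27* 5.35% and 8.26%, and that of *Ebi3* 22.6% and 15.8%. The summed level of the 10 genes was 101.2 to 106.5 FPKM in control and 199.0 to 213.6 FPKM in PGAM5 KD libraries, so the groups did not overlap.

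**Figure D3:**
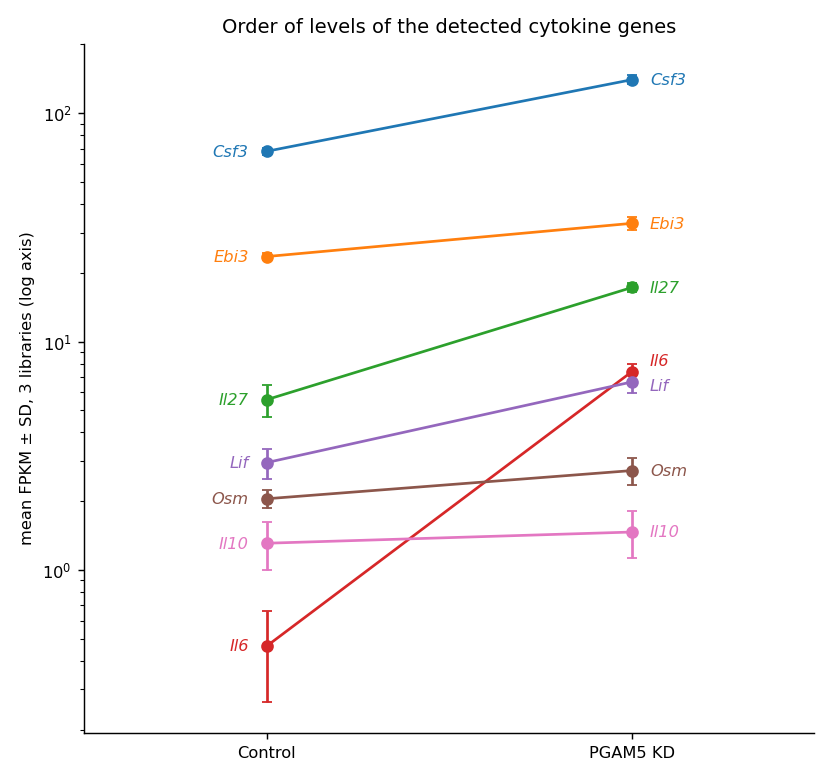
Mean level in FPKM (vertical axis, log scale) of the 7 cytokine genes above the filter, in control (left) and PGAM5 KD (right) cells; bars are ± SD over 3 libraries and a line joins the means of a gene. The line of *Il6* rises from the bottom, at 0.464 FPKM, across those of *Il10*, *Osm* and *Lif* to 7.38 FPKM, while the other lines do not cross.

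Ratios within a library do not depend on its depth or on the scaling between libraries, and 4 pairs of genes were compared in this way. The ratio of *Il27* to *Ebi3* was 0.284, 0.191 and 0.237 in control libraries 1, 2 and 3 and 0.596, 0.51 and 0.474 in PGAM5 KD libraries 1, 2 and 3. Thus *Ebi3* was above *Il27* in every library, and by a smaller margin in every PGAM5 KD library, with means of 0.237 ± 0.0465 and 0.527 ± 0.0626 (SD, n = 3 each). The ratio of *Lif* to its neighbor *Osm* was 1.63, 1.35 and 1.34 in control libraries and 2.72, 2.46 and 2.21 in PGAM5 KD libraries. The ratio of *Il6* to *Il10*, a proinflammatory against an anti-inflammatory cytokine, was 0.337, 0.427 and 0.278 in control libraries and 3.66, 6.78 and 5.38 in PGAM5 KD libraries. *Il10* was therefore above *Il6* in every control library and below it in every PGAM5 KD library. The ratio of *Csf3* to *Il6* was 201, 94.7 and 195 in control libraries and 19.7, 17.9 and 19.5 in PGAM5 KD libraries, lower in all of the latter. None of the 4 ratios overlapped between the groups, and each had p = 0.1 (adjusted p = 0.1) in an exact two-sided permutation test, the smallest that this design allows. All were made from the levels given above, and the separation of those with *Il6* follows from its own change.

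**Figure D4:**
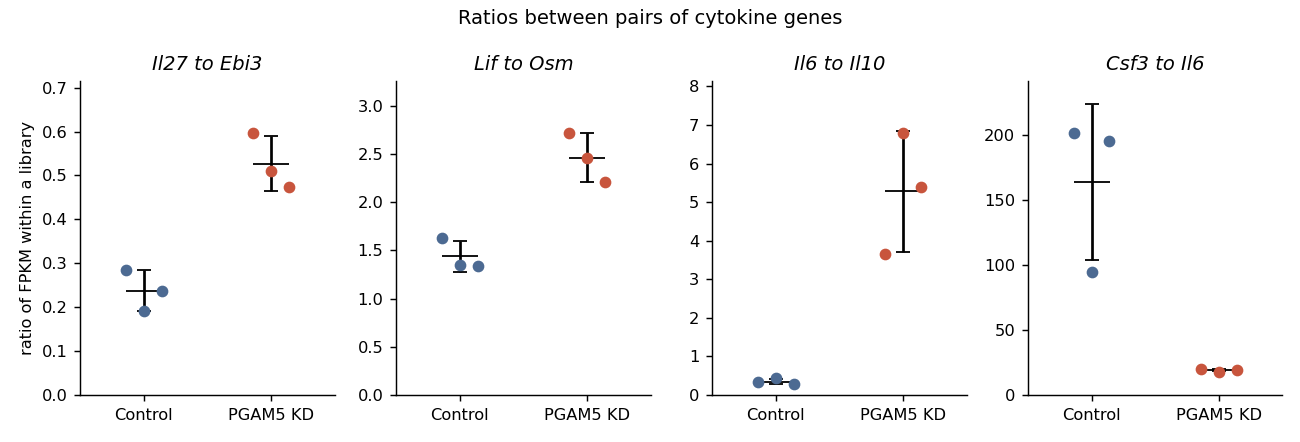
Ratios of FPKM within a library (vertical axis, from 0) for 4 pairs of cytokine genes in the 3 control and 3 PGAM5 KD libraries; points are libraries, the wide line is the mean and the bars are ± SD. *Il27* to *Ebi3*, *Lif* to *Osm* and *Il6* to *Il10* are higher in all PGAM5 KD libraries, and *Csf3* to *Il6* is lower in all of them.

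Receptor chains for these cytokines were mostly low, and those of IL-10 moved in opposite directions. Of 11 receptor genes, 5 were tested, 1 was higher and 2 were lower, with a median log2 fold change of -0.21 beside 0.01 over all genes tested, of which 16.8% were higher and 14.9% lower. This list and those below were chosen with earlier results of these data known, so their counts beside all genes are no independent evidence. *Il10ra*, the ligand-binding chain of the IL-10 receptor, rose from 5.13 ± 0.781 to 8.59 ± 0.524 FPKM (SD, n = 3 each; log2 fold change 0.65, SE 0.10, adjusted p = 0.00364 from limma). *Il10rb*, the chain that the IL-10 receptor shares with other receptors, fell from 7.83 ± 0.258 to 5.90 ± 0.499 FPKM (SD, n = 3 each; log2 fold change -0.36, SE 0.07, adjusted p = 0.00799 from limma). *Il6st*, which encodes gp130, a chain of the receptors for IL-6, LIF, OSM and IL-27, fell from 5.79 ± 0.175 to 4.86 ± 0.26 FPKM (SD, n = 3 each; log2 fold change -0.21, SE 0.06, adjusted p = 0.0352 from limma). The call of *Il6st* was lost when low genes were kept in the test (adjusted p = 0.0747) and with any of the 6 libraries left out (adjusted p from 0.0588 to 0.102). *Il6ra*, the IL-6 binding chain, was 8.67 ± 0.254 and 7.36 ± 0.715 FPKM (SD, n = 3 each) and was not past the threshold (log2 fold change -0.21, adjusted p = 0.0577 from limma), which it passed with scaling to TPM (0.0217), with voom (0.0139) and without PGAM5 KD replicate 3 (0.0242). *Csf3r*, the G-CSF receptor, was 1.72 ± 0.418 and 1.42 ± 0.135 FPKM (SD, n = 3 each; adjusted p = 0.445 from limma). The specific receptor chains of IL-12, IL-23 and IL-27 were under the filter in both groups, with means of 0.734 and 0.558 FPKM for *Il12rb1*, 0.124 and 0.0782 FPKM for *Il12rb2*, 0.292 and 0.197 FPKM for *Il23r*, and 0.0542 and 0.0562 FPKM for *Il27ra* in control and PGAM5 KD cells. *Lifr* was 0.00511 FPKM in control and 0 in PGAM5 KD cells, and *Osmr* was at 0 in all 6 libraries, so the specific chains for LIF and OSM were at or near 0 in the cells that expressed both ligands.

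Among 13 genes of JAK-STAT-SOCS signaling, 12 were tested, 5 were higher and 0 were lower, with a median log2 fold change of 0.17, beside 16.8% higher, 14.9% lower and a median of 0.01 over all genes tested. For the count of 0, limma also found 0 lower at an unadjusted p under 0.05, and voom found 0. *Socs3*, the feedback inhibitor of gp130 signaling, rose from 38.9 ± 2.08 to 87.9 ± 0.806 FPKM (SD, n = 3 each; log2 fold change 1.16, SE 0.04, adjusted p = 1.54e-05 from limma). *Stat3*, through which IL-6, LIF, OSM, IL-10 and G-CSF all signal, rose from 7.31 ± 0.519 to 12.1 ± 0.715 FPKM (SD, n = 3 each; log2 fold change 0.66, adjusted p = 0.000601 from limma). The phosphatase gene *Ptpn6* rose from 126.7 to 148.8 FPKM (log2 fold change 0.23, adjusted p = 0.00258 from limma). *Jak2* rose from 11.7 to 13.8 FPKM (log2 fold change 0.22, adjusted p = 0.0186 from limma), and this call was lost with scaling to TPM (0.0864) and without Control replicate 1 (0.0581), Control replicate 3 (0.0568) or PGAM5 KD replicate 3 (0.0529), each an adjusted p. *Stat4*, the STAT of the IL-12 receptor, was at 0.

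Of 26 transcription factor genes known for a role at these cytokine genes, 23 were tested, 12 were higher and 3 were lower, with a median log2 fold change of 0.21, beside 16.8% higher and 14.9% lower over all genes tested, so the share that was lower was near that of all genes. Like the other lists, this one was chosen with earlier results of these data known. The 12 included *Crem*, named after its values were seen, which passed the filter only through the PGAM5 KD libraries (0.815 and 1.52 FPKM), and with no filter 10 were higher. The largest change was in *Batf*, an AP-1 family partner of JUN proteins, which rose from 1.62 ± 0.0999 to 9.85 ± 1.10 FPKM (SD, n = 3 each; log2 fold change 2.04, SE 0.09, adjusted p = 2.27e-05 from limma). *Fos*, the classical AP-1 partner of JUN proteins, fell from 32.8 ± 0.924 to 17.4 ± 0.903 FPKM (SD, n = 3 each; log2 fold change -0.88, SE 0.05, adjusted p = 4.74e-05 from limma). *Cebpd*, a C/EBP family member that cooperates with NF-κB at *Il6*, rose from 22.2 ± 1.01 to 38.0 ± 1.43 FPKM (SD, n = 3 each; log2 fold change 0.75, adjusted p = 8.84e-05 from limma). *Nfil3*, a repressor of *Il12b*, rose from 5.73 ± 0.464 to 10.9 ± 1.42 FPKM (SD, n = 3 each; log2 fold change 0.81, adjusted p = 0.00133 from limma). *Bhlhe40*, a repressor of *Il10*, fell from 11.3 ± 0.0563 to 6.24 ± 0.597 FPKM (SD, n = 3 each; log2 fold change -0.77, adjusted p = 0.000315 from limma), while *Il10* did not pass the test. The third gene that was lower, named after its values were seen, was *Cebpa*, which fell from 6.42 to 4.81 FPKM (log2 fold change -0.36, adjusted p = 0.0167 from limma).

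Of 10 genes for cytokine mRNA decay and stability, 9 were tested, 2 were higher and 2 were lower, with a median log2 fold change of -0.06, shares near the 16.8% and 14.9% of all genes tested. *Zfp36*, whose product tristetraprolin promotes the decay of AU-rich cytokine mRNAs, rose from 25.1 ± 0.83 to 34.4 ± 1.41 FPKM (SD, n = 3 each; log2 fold change 0.44, adjusted p = 0.000632 from limma). Its relative *Zfp36l2* fell from 52.3 ± 1.66 to 39.6 ± 1.04 FPKM (SD, n = 3 each; log2 fold change -0.39, adjusted p = 0.000526 from limma). *Rc3h1* (roquin, log2 fold change -0.22, adjusted p = 0.0252 from limma) and *Zc3h12a* (Regnase-1, which cleaves *Il6* mRNA, log2 fold change 0.20, adjusted p = 0.0437 from limma) were close to the threshold. The call of *Rc3h1* was lost without Control replicate 1 or 2 or PGAM5 KD replicate 1 or 3 (adjusted p from 0.0523 to 0.0793) and when low genes were kept (0.0507), and that of *Zc3h12a* without Control replicate 2 or 3 or PGAM5 KD replicate 2 or 3 (adjusted p from 0.073 to 0.127), when low genes were kept (0.0971), with scaling to TPM (0.153), with quantile normalization (0.123) and without the mean-variance trend (0.0741).

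Of 12 genes known to respond to IL-10 and STAT3, 9 were tested, 6 were higher and 1 was lower, with a median log2 fold change of 0.56, where 16.8% of all genes tested were higher and 14.9% were lower. Besides *Socs3* and *Nfil3*, which the lists above also hold, *Ddit4* rose from 1.24 ± 0.323 to 3.17 ± 0.795 FPKM (SD, n = 3 each; log2 fold change 0.89, adjusted p = 0.00875 from limma) and the kinase gene *Pim1* from 19.7 ± 0.486 to 32.1 ± 2.45 FPKM (SD, n = 3 each; log2 fold change 0.67, adjusted p = 0.000299 from limma). *Cd14*, also the coreceptor for LPS, rose from 461 ± 7.58 to 683 ± 13.4 FPKM (SD, n = 3 each; log2 fold change 0.56, adjusted p = 2.68e-05 from limma). The gene that was lower, named after its values were seen, was *Il1rn*, the IL-1 receptor antagonist, which fell from 35.9 ± 1.24 to 27.8 ± 0.599 FPKM (SD, n = 3 each; log2 fold change -0.36, adjusted p = 0.000859 from limma). These genes also respond to other signals, including LPS itself.

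**Figure D5:**
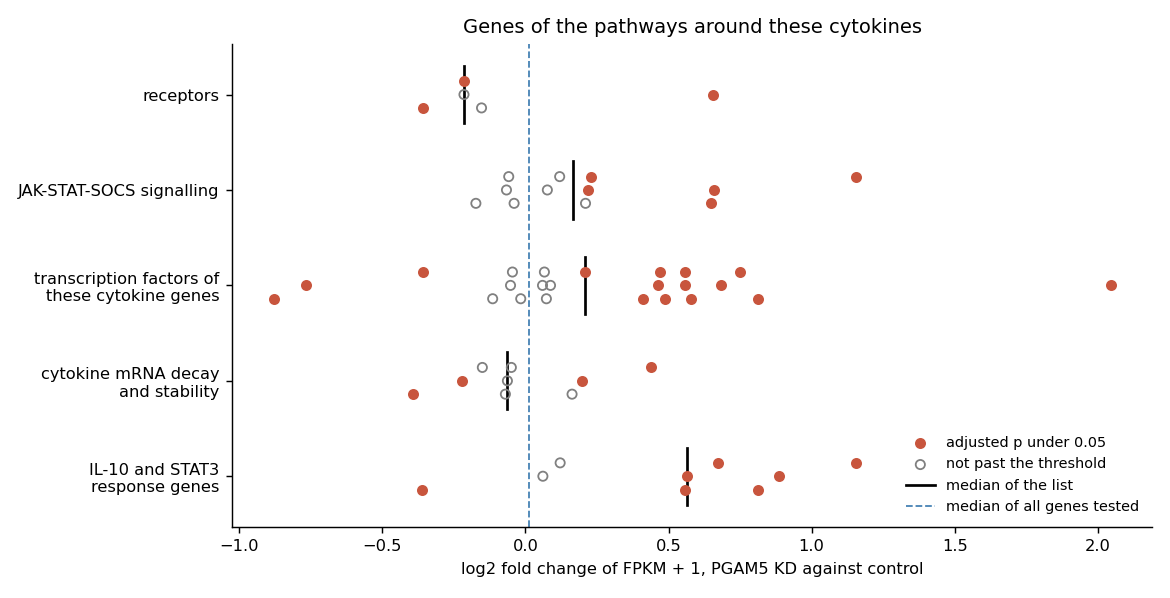
Log2 fold changes of FPKM + 1 in PGAM5 KD against control (horizontal axis) of the tested genes in 5 lists around the cytokines, 1 point per gene. The lists were chosen with earlier results of these data known. Filled points passed an adjusted p under 0.05 in limma, open points did not, black lines are the medians of the lists and the dashed line is the median of all genes tested. The list of IL-10 and STAT3 response genes has the highest median (0.56), and *Batf* is the point farthest to the right (2.04).

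Other helical cytokines were nearly silent. Of 20 such genes, 8 were at 0 in all 6 libraries and only *Csf1*, the macrophage growth factor gene, passed the filter, with 1.06 ± 0.378 FPKM in control and 1.04 ± 0.522 FPKM in knockdown cells (SD, n = 3 each; log2 fold change -0.03, adjusted p = 0.934 from limma). Thus only 1 of the 20 was tested by limma or by voom, and it was called in neither direction, also at an unadjusted p under 0.05. The other genes could not be called, beside 16.8% higher and 14.9% lower over all genes tested. With no filter on low values 1 of 12 tested was higher at an unadjusted p under 0.05 by limma.

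The genes whose profile over the 6 libraries was most like that of *Il6* included both genes of IL-1. Likeness was measured as the Euclidean distance between centered log2(FPKM + 1) profiles over the genes tested other than the 10. The nearest was *Ifi202b* of the interferon-inducible Ifi200 family (distance 0.43, with 2.58 ± 0.546 FPKM in control and 22.9 ± 2.69 FPKM in PGAM5 KD cells), followed by the lysozyme gene *Lyz1* (0.51, with 2.43 ± 0.387 and 19.2 ± 1.26 FPKM). *Il1a* (0.52, with 0.789 ± 0.241 and 7.27 ± 0.911 FPKM) and *Il1b* (0.56, with 6.51 ± 0.251 and 32.1 ± 1.85 FPKM) came next. The fifth was *Hao1*, an oxidase gene (0.66, with 1.41 ± 0.239 and 9.63 ± 0.754 FPKM), and all values are means ± SD of 3 libraries. *Ifi202b* and *Lyz1* have close paralogs, and counting may have moved fragments between them. These genes were chosen for their likeness, so no test of their differences between the groups is given. With 3 libraries per group, such likeness is mainly a similar difference between the groups, and joint regulation was not tested. *Il1a*, like *Il6*, passed the filter only through the PGAM5 KD libraries.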

How the data were processed

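RNA-seq values of 3 control and 3 PGAM5 KD libraries of LPS-treated iBMDMs were used. The authors deposited FPKM per Ensembl gene; the submitters' processing notes name HISAT2 2.0.5, featureCounts 1.5.0-p3 and mm10. Of the identifiers, 54495 were in GENCODE M21 and 37 were not. FPKM times exon length fell on whole fragments (within 0.01, for values under 1000 fragments) for 96.8% to 97.1% of values, which gave depths and fragments. Genes with a mean of at least 1 FPKM were tested on the log2(FPKM + 1) scale by limma 3.58.1 (R 4.3.3, mean-variance trend, two-sided, Benjamini-Hochberg). The thresholds were those of the study, an adjusted p under 0.05 and, for differential expression, an absolute log2 fold change above 1. Exact permutation tests were two-sided. The fit was tested on simulated data. No negative binomial count test was used, since the unit is FPKM. Replicates of a group differed by more than sampling noise (chi-square per degree of freedom 4.82 to 8.16).

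Named were the 10 genes, *Pgam5*, all receptors, up to 5 genes of each list past the threshold (those with the largest changes), the 5 genes most like *Il6*, and overlapping genes. Not every gene that this rule names is reported here. A search with blastn 2.17.0 (at least 85% identity over 200 bases) found no gene resembling any of the 10. The genes and lists were chosen with earlier results of these data known. Alternatives were a constant of 0.1, no filter or a mean of at least 5 FPKM, TPM, median centring, quantile normalization, no trend, array weights, voom on recovered fragments, a replicate block, and leaving out each library. Python 3.11.15, pandas 2.3.3, scipy 1.17.1 and matplotlib 3.10.9 were used.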

Additional observations from a re-analysis of the deposited data

How the results depend on the processing

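The directions of *Il6*, *Il27*, *Csf3*, *Lif* and *Ebi3* and their side of the adjusted p threshold held under every alternative that tested them. With a mean of at least 5 FPKM, 3 of the 10 genes were called higher, since *Il6*, *Lif*, *Osm* and *Il10* were then not tested. *Il10* reversed without Control replicate 1 (-0.0018) and without PGAM5 KD replicate 1 (-0.013), within a range of -0.013 to 0.19 when each library was left out. *Osm* passed the threshold with array weights (0.31) and without PGAM5 KD replicate 1, with a range of 0.23 to 0.36 over left-out libraries. Over all genes, scaling to TPM gave 1088 higher. Differentially expressed genes, 83 higher and 56 lower in the main limma fit used here, were 154 and 107 with a constant of 0.1, 49 and 27 at a mean of at least 5 FPKM, and 175 and 108 with voom, and 116 were lower with TPM. Receptors called lower were 1 with no filter, 3 with TPM or voom, and 1 to 2 over left-out libraries. Decay genes called higher were 1 with TPM, quantile normalization or no trend, and 1 to 2 over left-out libraries. Decay genes called lower were 1 with no filter, 3 with TPM, quantile normalization or voom, and 1 to 2 over left-out libraries. The causes of these shifts were not tested.

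The labels link Control and PGAM5 KD replicates only by a number. Deviations of same-numbered libraries from their group means correlated at -0.02, 0.016 and -0.05, which cannot show whether they shared a culture or day. With a replicate block 5 of the 10 genes were called higher and 0 lower, and all genes gave 1440 higher and 1212 lower. Receptors called lower and decay genes called higher were 1 each, and transcription factors called higher were 10. Calls lost with the block included *Il6st* (adjusted p = 0.0885 from limma), *Jak2* (0.0546) and *Zc3h12a* (0.074). *Il12a*, *Il12b* and *Il23a* had at most 12 and *Il10* at most 53 fragments per library.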
